A study of Mus musculus with 9 samples.

Results

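Lin-Sca1+cKit+ (LSK) cells are the bone marrow fraction that holds the blood-forming stem cells and multipotent progenitors, and the control LSK cells of this study were profiled on 3 of its 9 arrays. The members are the 3 arrays titled as controls, and every gene was ranked by its mean log2 value on them. The other 6 arrays hold LSK cells, 3 negative and 3 positive for the transgene, of mice given cells that carried dnMPL. They enter no value here except through an alternative setting that chose the probe sets over all 9 arrays. Recipients and donors were C57BL/6 mice, and the recipients of the control cells were lethally irradiated at 10 Gy and received cells labelled wild type. LSK cells were sorted 8 weeks later, and each array held RNA of pooled marrow of 2 to 5 mice. Donor marrow in the series was depleted of lineage-positive cells, kept in culture with cytokines and transduced with retroviral vectors before transplantation. Whether the control cells carried a vector is not stated, and the labels call the transplanted control cells LSK cells where the design text describes lineage-negative cells. The age and sex of the mice are not given in the sources used here. The levels therefore describe LSK cells regrown in irradiated hosts, and no array of unmanipulated marrow stands beside them.

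Stem cells and multipotent progenitors are rare marrow cells that lack the surface proteins of mature blood lineages and carry the receptor tyrosine kinase Kit and the surface protein Sca-1. They are known to hold a shared set of transcription factors, named the heptad, and to transcribe low levels of genes of several blood lineages before they commit to any of them, which is called lineage priming. Most long-term stem cells rest outside the cell cycle, whereas the multipotent progenitors that make up most of the LSK gate divide often.

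A value here is a log2 RMA value, on which a step of 1 is a 2-fold step in signal. Each of 18193 genes was represented by its brightest probe set that names a single gene. Probe sets bind with unequal strength, so the order of genes ranks signal and not numbers of transcripts. In pooled cells, fewer cells of a type and less RNA per cell cannot be told apart. The 3 values after a gene name are always those of controls 1, 2 and 3, in that order, and an error is the SD over these 3 arrays (n = 3). The arrays are listed as separate samples and each pooled several mice, and nothing says whether mice were shared between pools.

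The background was read from genes that blood cells are not known to use. The reference held 128 genes of 5 families, 39 olfactory receptors, 32 vomeronasal receptors, 38 keratin-associated proteins of hair, 13 crystallins of the lens and 6 taste receptors. Their median was 2.43 and their values ran from 1.04 to 6.31. The 95th percentile, 5.05, was taken as the background level, and 7 of the 128 lay above it by construction. By this level 9472 genes (52.1%) were above background and 8721 (47.9%) were at background. Of the 128 reference genes 116 have 1 probe set, while a gene with several takes its brightest. The level is therefore less strict for genes with several probe sets. The share above background was 36.1% of genes with 1 probe set and 82.1% of genes with 4 or more. The top 10% of genes, 1820 genes at 8.53 or more, are called high here, and the 7652 genes (42.1%) between both levels are called middling. Over all genes the median was 5.18, and the means ran from 1.04 to 14.39.

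**Figure D1:**
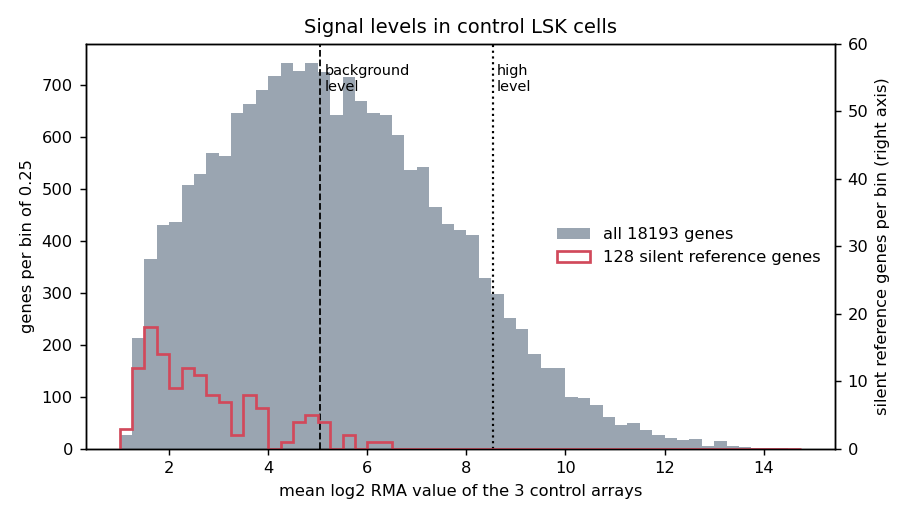
Histogram of the mean log2 RMA value of 18193 genes over the 3 control arrays (grey, left axis, genes per bin of 0.25) with the 128 silent reference genes (red line, right axis). The dashed line is the background level of 5.05 and the dotted line the lower edge of the high class at 8.53. The reference genes gather around 2.43, while the genes as a whole spread from 1.04 to 14.39 with no gap between the classes.

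The 3 arrays agreed most closely between controls 1 and 2. Over all 18193 genes Pearson's r was 0.959 between controls 1 and 2, 0.919 between controls 1 and 3 and 0.928 between controls 2 and 3, as a description across genes, which are not independent replicates. Among the 9472 genes above background r was 0.892, 0.784 and 0.818 for the same pairs. The median absolute difference there was 0.40 between controls 1 and 2 and 0.62 and 0.61 for the pairs with control 3. Differences over 1 on the log2 scale were found for 17.0%, 31.0% and 29.0% of these genes. Control 3 was thus the array farthest from the others by each of these measures.

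Agreement depended on the level. The median SD over the 3 arrays was 0.36 in the high class, 0.51 in the middling class and 0.28 in the background class. Of the genes above background 4266 (45.0%) had a range over 1 and 1144 (12.1%) a range over 2. In 679 of those 1144 the odd array was control 3, lower than the others in 510 and higher in 169, against 297 for control 1 and 168 for control 2. The top 10% of genes was shared by all 3 arrays for 1285 genes, which is 70.6% of each array's 1820. Controls 1 and 2 shared 83.6% of it, controls 1 and 3 75.6% and controls 2 and 3 77.5%. Of all genes 7921 were above background on 3 arrays, 1450 on 2, 1388 on 1 and 7434 on none. Genes of the middling class thus varied most between the arrays.

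Control 3 also differed in Gapdh, 1 of 4 mouse protein-coding transcripts whose ends were compared here by control probe sets, which serve as a sign of RNA quality. For Gapdh the 3′ end exceeded the 5′ end by 2.78 on control 1, 2.83 on control 2 and 3.87 on control 3. The same difference was -0.61, -0.72 and -0.71 for beta-actin, -1.11, -1.06 and -1.17 for pyruvate carboxylase and -0.27, -0.78 and -0.50 for the transferrin receptor, where control 3 lay between or close to the others. The 3′ end of pyruvate carboxylase read 3.90, 3.95 and 4.14, below the background level, and that of the transferrin receptor 5.05 on control 3. The differences of these 2 therefore say little about RNA quality. The array also reads both ends of the 18S ribosomal RNA, at 14.65, 14.60 and 14.60 (3′) and 13.85, 13.83 and 13.70 (5′). Its 5′ end was lowest on control 3. Among control probe sets of transcripts not from mouse, bioB (3′) read 10.54, 10.56 and 11.09 and bioC (3′) 11.78, 11.88 and 12.40, while cre (3′) read 14.95, 14.94 and 14.96. The upper quartile of the gene values was 7.13, 7.13 and 6.83. The part of these differences in the results below was not tested.

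The top 20 genes were, in order, Malat1 (14.39), Hnrnpab (14.37), AY036118 (14.15), Rpl13a (13.88), ND5 (13.60), Rps29, Rpsa, Actb, Npm1, Tuba4a, Pebp1, Tpt1, Rps28, Rpl38, Hspa8, Gas5, B2m, Rps3, Rps4x and Ywhae (13.16). Malat1 is a nuclear long noncoding RNA, ND5 a mitochondrial gene of respiratory complex I, Npm1 a nucleolar chaperone of ribosome assembly and B2m the light chain of MHC class I. Of these 20, 7 encode proteins of the cytosolic ribosome, namely Rpl13a, Rps29, Rpsa, Rps28, Rpl38, Rps3 and Rps4x. Rpl13a read 13.89, 13.93 and 13.82, and no array departed from the others by as much as the median range of the high class, 0.68. For some of these genes the probe sets disagreed. The 7 probe sets of Hnrnpab, an RNA-binding protein, ran from 6.05 to 14.37, and the 3 of Tuba4a, an alpha tubulin, were 5.49, 9.84 and 13.38.

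Families grouped by name differed in their shares of high genes. Of 43 measured cytosolic ribosomal protein genes 37 were high, 3 middling and 3 at background, with a median of 11.96. Spliceosomal and hnRNP proteins, which process pre-mRNA, had 35 of 47 in the high class, and 5 of the 6 subunits of the MCM replicative helicase were high. Subunits of NADH dehydrogenase, respiratory complex I, had 23 of 35 high. Mitochondrial ribosomal proteins were mostly middling, 58 of 73, with a median of 7.37. Zinc finger proteins named Zfp, most of them DNA-binding proteins, had 11 high, 177 middling and 148 at background among 336 genes, and solute carriers had 17, 134 and 196 among 347. At the low end, none of 35 protocadherins, cell adhesion proteins of neurons, was above background. Collagens were at background for 36 of 42, cytochrome P450 enzymes for 62 of 73, potassium channels for 67 of 84 and FGF ligands for 19 of 22. Among long noncoding RNAs 23 were high, 211 middling and 1224 at background, against 1785, 7384 and 7301 of protein-coding genes.

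The promoters of 4 genes from different levels are printed because they show genes of the high class with unlike CG content, beside a gene at background. Each is the 250 bases before the start in the RefSeq promoter table of build GRCm38.p6, written 5′ to 3′ on the gene's strand, and capitals mark every CG. Rpl13a, a ribosomal protein gene of the high class, lies on the minus strand at chr7:45128746-45128995. Myb, a progenitor transcription factor of the high class, lies on the minus strand at chr10:21160985-21161234. Mpo, the gene of the primary granule enzyme myeloperoxidase and also in the high class, lies on the plus strand at chr11:87793534-87793783. Cd3e, a T cell receptor subunit at background, lies on the minus strand at chr9:45009612-45009861.
Rpl13a: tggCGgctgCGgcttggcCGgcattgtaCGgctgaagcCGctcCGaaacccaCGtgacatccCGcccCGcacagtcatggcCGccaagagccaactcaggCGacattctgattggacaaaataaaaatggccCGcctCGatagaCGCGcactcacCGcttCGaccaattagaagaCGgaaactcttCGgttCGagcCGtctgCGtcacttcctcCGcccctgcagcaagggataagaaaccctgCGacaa
Myb: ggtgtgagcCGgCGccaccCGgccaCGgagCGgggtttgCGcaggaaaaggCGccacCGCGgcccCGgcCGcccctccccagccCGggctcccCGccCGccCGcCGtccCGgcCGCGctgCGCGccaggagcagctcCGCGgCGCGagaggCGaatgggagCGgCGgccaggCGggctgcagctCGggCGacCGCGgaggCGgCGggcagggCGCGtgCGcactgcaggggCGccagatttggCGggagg
Mpo: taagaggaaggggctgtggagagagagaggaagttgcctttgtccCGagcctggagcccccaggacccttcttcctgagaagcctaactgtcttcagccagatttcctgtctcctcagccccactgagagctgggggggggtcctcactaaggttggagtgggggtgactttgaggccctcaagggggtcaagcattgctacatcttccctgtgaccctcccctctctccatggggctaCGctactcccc
Cd3e: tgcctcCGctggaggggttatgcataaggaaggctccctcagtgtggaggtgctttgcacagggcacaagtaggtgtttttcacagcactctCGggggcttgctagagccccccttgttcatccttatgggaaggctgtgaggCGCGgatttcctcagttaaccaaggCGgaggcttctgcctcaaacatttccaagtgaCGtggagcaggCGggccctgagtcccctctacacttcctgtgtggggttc
The Rpl13a stretch held 24 CG and that of Myb 40, against 2 in Mpo and 7 in Cd3e. The ratio of observed to expected CG was 1.13, 0.975, 0.0913 and 0.344. The letters GGGCGG, the core of the site of SP1 family factors, were found 2 times in Rpl13a and 3 times in Myb, counting both strands and overlapping matches, and in neither of the other stretches. Mpo thus shares its level class with Rpl13a and Myb but not their CG content.

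Over the gene classes, a promoter entry was found for 83.2% of high, 81.6% of middling and 76.7% of background genes, and a gene with several entries was given the mean over them. The high class had a median of 18 CG in 250 bases and the middling class 16. GGGCGG on either strand, whose matches each contain a CG, stood in 62.8% and 58.8% of these promoters, and in 49.4% over all 14452 measured genes with an entry. The letters CCGGAAGT, a form of the ETS factor site, stood in 6.21% and 6.49%, and in 4.44% of all. CACGTG, the E-box of MYC and related factors, stood in 9.99% and 8.28%, and in 7.51% of all. TATAAA on the gene's strand between 40 and 16 bases before the start was found in 1.48% and 1.19%, and in 2.53% of all. The background class fell short of the 80% with a value that was set as a minimum, so its check is void, and its median of 7 CG is given without comparison. All measured genes, with an entry for 79.4%, fell just short of it too and include the background class. The shares over all genes are therefore also given without comparison. A match of letters describes a stretch of sequence and does not show binding.

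The lists differed in this feature. Among lists with a promoter entry for at least 80% of their measured genes, the median was 18 CG for ribosomal proteins (33 genes), 18 for replication genes (28), 20 for polycomb genes (23) and 16.5 for stem cell regulators (22). It was 4 for primary granule genes (12), 3 for late neutrophil genes (13), 4 for early lymphoid genes (15), 4 for B cell genes (12) and 2 for mast cell and basophil genes (8). Lineage-deciding factors, with an entry for 19 of 24 genes (79.2%) and so just short of that share, had a median of 16. Genes expressed in other organs had 3 CG (50 genes). The early lymphoid and primary granule genes reached medians of 7.49 and 7.77 in signal all the same, as described below.

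**Figure D2:**
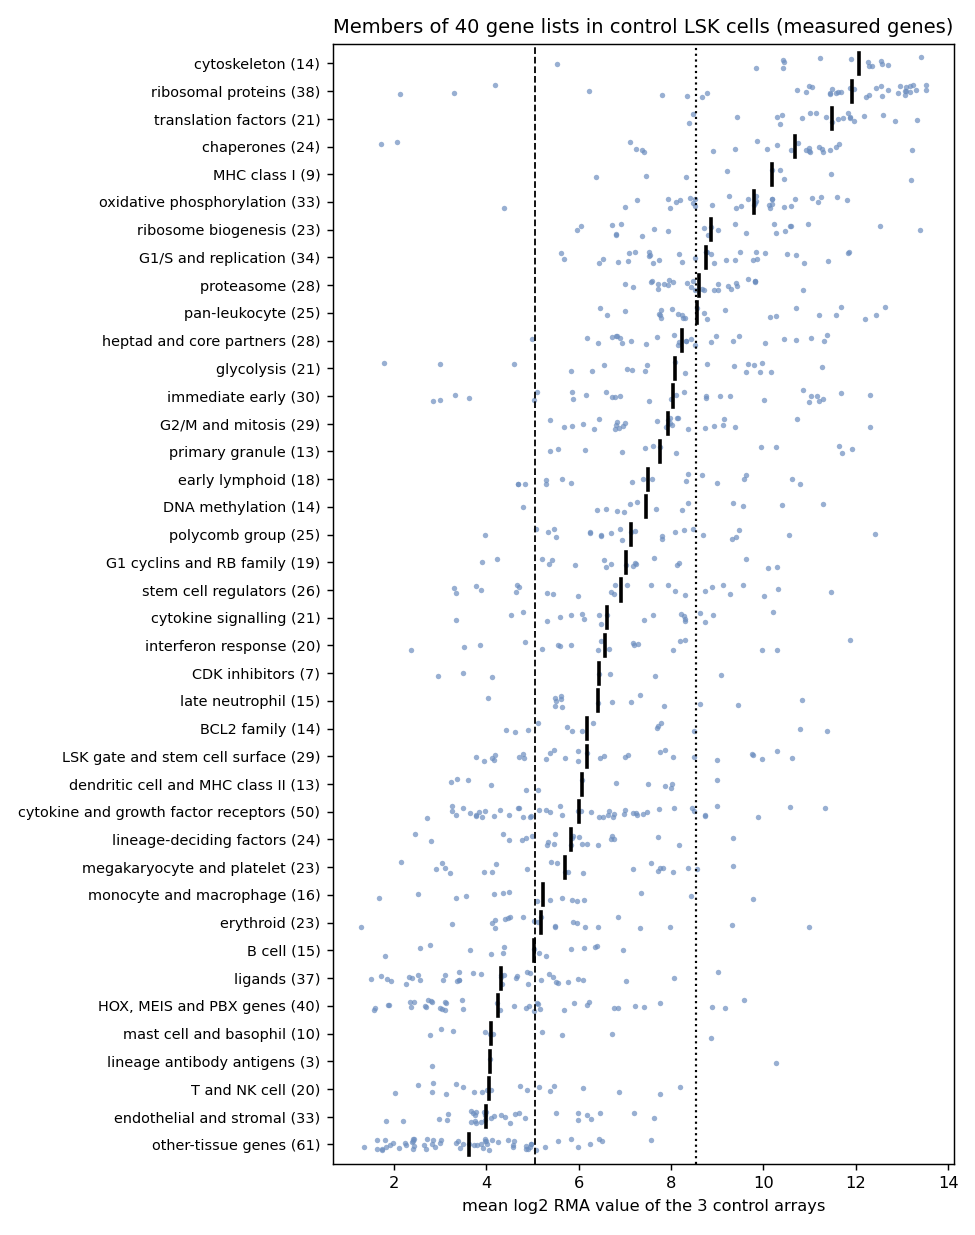
Mean log2 RMA value over the 3 control arrays (horizontal axis) of every measured member of 40 gene lists, 1 point a gene, with the list's median as a black bar and the number of measured genes in brackets. The dashed and dotted lines are the background level of 5.05 and the lower edge of the high class at 8.53. Cytoskeleton and ribosomal protein genes have the highest medians, 12.08 and 11.92, and genes of other organs the lowest, 3.64.

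The label was checked against the markers of the gate. Kit, the receptor of stem cell factor that the gate selects, read 8.73, 8.67 and 8.08, at the upper edge of the middling class, and its other probe set read 8.00, 7.46 and 6.00. The gene of Sca-1, Ly6a, has no probe set that names it alone and is not analysed here. Cd34, a progenitor sialomucin, read 9.72, 9.66 and 9.92 and Flt3, the receptor kinase of multipotent and lymphoid-primed progenitors, read 9.10, 8.79 and 9.07. Both were above 8.53 on every array. Ptprc, which encodes the leukocyte antigen CD45, read 10.27, 10.17 and 10.36, and all 25 pan-leukocyte genes were above background, 13 of them high, with a median of 8.55 against 5.18 for all genes. The highest of these were Laptm5, Cd47, Arhgdib and Cd53, at 12.62, 12.43, 12.20 and 11.67.

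Antigens used to remove mature cells were low where they could be read. Itgam, the integrin chain CD11b of myeloid cells, read 3.69, 3.39 and 5.20, just above background on control 3. Cd3e, the T cell receptor subunit, read 2.63, 3.04 and 2.79. The B220 antibody sees a form of Ptprc, whose forms are not separated here. The depletion was read here through Itgam and Cd3e.

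Surface genes of stem cells covered the whole range of levels. Of 29 measured genes of the gate and of stem cell surface lists 6 were high, 15 middling and 8 at background. Cd27, a TNF receptor family member of progenitors, read 10.10, 10.53 and 11.21, and Cd48, a signalling lymphocyte family protein absent from long-term stem cells and present on multipotent progenitors, read 10.72, 9.25 and 9.30. Slamf1, the CD150 antigen by which long-term stem cells are sorted, read 3.13, 4.12 and 5.11, at background on the mean and above it on control 3 alone. The other 2 probe sets of Slamf1 averaged 3.51 and 3.99. Procr, the endothelial protein C receptor of stem cells, read 7.57, 7.85 and 8.69. Tek, the receptor of angiopoietin, read 5.11, 6.06 and 6.81 and spread over 1.69 between the arrays. Esam, an adhesion protein of stem cells and endothelium, read 6.10, 5.62 and 6.27, and Itga2b, the integrin chain CD41, read 7.75, 7.94 and 7.59. Vwf, which marks platelet-biased stem cells, and Cdh5, an endothelial cadherin, were at background with 3.95 ± 0.41 and 3.78 ± 0.23. Cd34, Flt3, Cd27 and Cd48 were thus in the high class, Procr, Tek and Esam middling, and Slamf1 and Vwf at background.

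All 7 heptad factors were above background on every array. Lmo2, a bridging protein of the complex, read 11.21, 11.22 and 11.48. Erg, an ETS factor needed for stem cell maintenance, read 10.61, 10.55 and 10.93, and Runx1, the core-binding factor subunit that sets up blood formation, read 10.13, 9.98 and 10.00. Gata2, a zinc finger factor of stem cells, read 8.85, 9.22 and 8.52. These 4 were high. Lyl1, a basic helix-loop-helix factor, read 8.34, 8.63 and 8.60 and Fli1, another ETS factor, read 8.46, 8.72 and 7.34. Tal1, the partner of Lmo2, was the lowest at 7.01, 7.28 and 6.37. The median range of the 7 over the arrays was 0.39, and control 3 was the lowest for 3 of them. That range was 0.91 for all genes above background, 0.68 in the high class and 0.98 in the middling class.

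Most partners of the heptad were present too. Of 28 measured heptad and partner genes 10 were high, 17 middling and 1 at background, with a median of 8.24. Myb, needed for progenitor growth, read 11.30, 11.45 and 11.38, and Myc, a factor of growth and ribosome production, read 11.04, 11.01 and 11.06. Mycn, another MYC family factor, which resting stem cells are known to use, read 9.39, 8.82 and 8.72. The lowest were Spi1 (PU.1, 6.60, 6.77 and 6.82), Cebpa (7.20, 6.86 and 5.20), Gfi1b (6.17 ± 0.36) and Zbtb16 (5.22, 6.11 and 3.65), of which Zbtb16 passed the background level on controls 1 and 2 only. Spi1 and Cebpa are factors of myeloid fate, and Cebpa was lower on control 3 than on the others.

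Regulators of stem cell function were split. Of 26 measured, 8 were high, 11 middling and 7 at background, with a median of 6.91. Msi2, an RNA-binding protein of stem cells, read 11.43, 11.51 and 11.45, and Foxo3, a forkhead factor that keeps stem cells at rest, read 10.28, 10.44 and 10.21. Hlf, a bZIP factor that marks primitive cells, read 9.21, 9.47 and 9.95 and Meis1, a HOX cofactor, read 8.52, 8.57 and 9.56, both highest on control 3. Mecom, needed for long-term stem cells, read 7.87, 7.35 and 7.49 and Prdm16, a related zinc finger regulator, read 7.01, 7.06 and 6.28. At background stood Ndn, Klf12, Sox17 and Smad6, with means of 3.88, 3.78, 3.35 and 3.31. Sox17 is known as a factor of fetal and not adult stem cells.

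HOX genes, which set body axis identity and in blood cells support self-renewal, were mostly silent outside the A cluster. Of 40 measured HOX, MEIS and PBX genes 25 were at background. In the A cluster 5 of 9 (55.6%) were above background, near the 52.1% of all genes. The counts were 2 of 9 (22.2%) in the B cluster, 2 of 7 (28.6%) in the C cluster and 1 of 8 (12.5%) in the D cluster. Hoxa9, a self-renewal factor, read 9.70, 9.51 and 9.54 and Hoxa3 read 8.67, 9.17 and 9.65, and these were the HOX genes in the high class. Hoxb4, known to expand stem cells when overexpressed, read 8.99, 7.18 and 5.48, a range of 3.51, high on control 1 and near background on control 3. The lowest were Hoxd10, Hoxd1, Hoxb1 and Hoxc8, at 1.56, 1.60, 1.88 and 1.89. In the A cluster 2 of 9 genes were high, and in the others none.

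**Figure D3:**
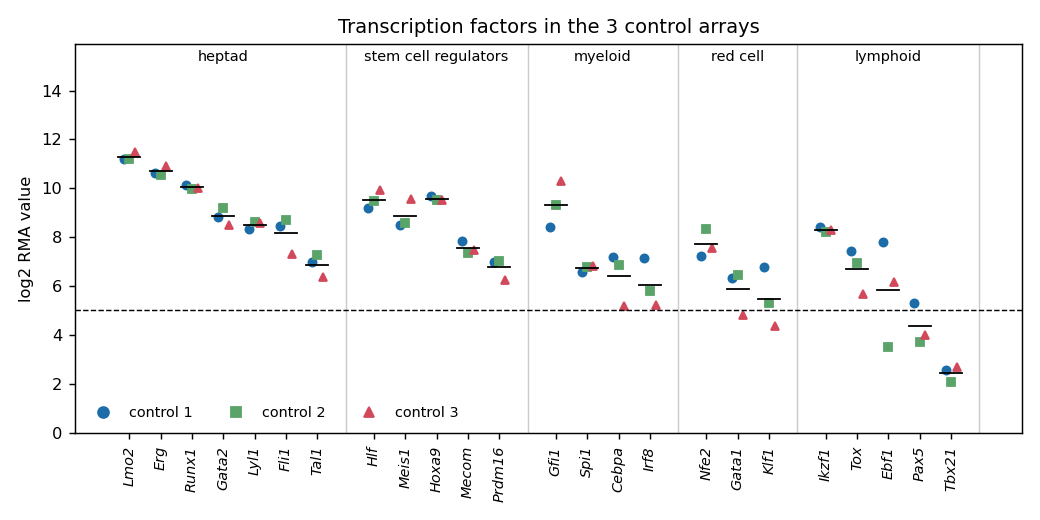
Log2 RMA value (vertical axis) of transcription factors on controls 1 (blue circles), 2 (green squares) and 3 (red triangles), grouped by role, with the mean as a black bar and the background level of 5.05 as a dashed line. The 7 heptad genes lie above the line on every array, while Ebf1, Klf1 and Irf8 spread widely and Pax5 and Tbx21 lie at background on the mean.

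Factors that decide a lineage had a lower median than the heptad and partner genes and the stem cell regulators. Only Gfi1 of 24 measured was high, 16 were middling and 7 at background, with a median of 5.84 against 5.18 for all genes. Thus 70.8% were above background and 4.2% high, against 52.1% and 10% of all genes. Gfi1, a transcriptional repressor that acts in granulocytes and stem cells, read 8.43, 9.31 and 10.29, and Nfe2, a megakaryocyte and red cell factor, read 7.25, 8.36 and 7.57. Irf8, of monocytes and dendritic cells, read 7.16, 5.81 and 5.25. Gata1, the main factor of red cell fate, read 6.34, 6.48 and 4.81, and Klf1, which drives globin genes, read 6.78, 5.30 and 4.38, both below background on control 3. Ebf1, the early B cell factor, read 7.81, 3.52 and 6.17, and Pax5, which seals B cell fate, read 5.32, 3.74 and 4.02. Tbx21 and Eomes, T-box factors of T and NK cells, were the lowest at 2.47 ± 0.33 and 2.81 ± 0.25. On control 3 the median difference from the mean of the other arrays was -0.82 over members above background. The count above background was 11 on the rule that each array must pass, which is over 1.5 times fewer than 17.

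Primary granule genes, which are transcribed in early granulocyte and monocyte progenitors, were all above background on the mean. Of 13 measured 11 were above it on each array. By class, 5 were high and 8 middling, with a median of 7.77. Mpo read 12.33, 11.95 and 11.49. Srgn, a granule proteoglycan, Calr, an endoplasmic reticulum chaperone, and Plac8 averaged 11.70 ± 0.12, 11.64 ± 0.29 and 10.27 ± 0.80. Calr is also counted in the chaperone list. Elane, neutrophil elastase, read 8.05, 6.69 and 6.10 and Prtn3, proteinase 3, read 7.78, 7.43 and 7.09. Ms4a3, a marker of granulocyte and monocyte progenitors, was the lowest at 5.10, 6.06 and 4.96. Control 3 was the lowest array for 9 of the 13, with a median difference of -0.52 from the others, and the list's median was 8.16 without it. It was the highest array for 3, namely Calr, Cst7 and Hp.

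Late neutrophil genes went the other way between the arrays. They encode secondary and tertiary granule proteins and calcium-binding proteins of nearly mature neutrophils. The median of 15 measured genes was 6.05 on control 1, 5.15 on control 2 and 8.31 on control 3. S100a8, a chain of calprotectin, read 9.04, 7.43 and 11.87, and S100a9, the other chain, read 10.74, 8.83 and 12.93. Ngp, neutrophilic granule protein, read 8.01, 6.79 and 11.12, Camp, the antimicrobial cathelicidin, read 7.35, 5.73 and 10.43 and Ltf, lactoferrin, read 7.41, 4.92 and 9.69. Mmp8, a collagenase, read 2.94, 3.02 and 6.17 and passed background on control 3 alone. Control 3 was the highest array for 13 of the 14 genes above background, with a median of 3.65 above the mean of the others. Without control 3 the median was 5.83 against 6.42, and 10 genes were above background against 14. Itgam moved the same way on control 3. Of the primary granule genes Mpo, Elane and Prtn3 were lowest there, whereas Calr, Cst7 and Hp were highest. Whether cells of this kind were in the sorted pool was not tested, and Ly6g, their defining marker, is not analysed here.

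**Figure D4:**
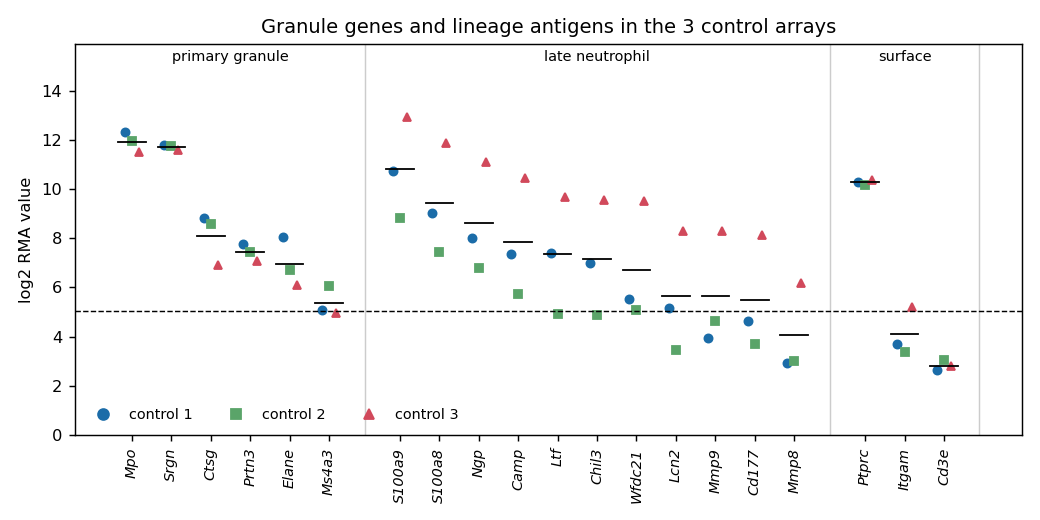
Log2 RMA value (vertical axis) of selected primary granule genes, late neutrophil genes and surface antigens on controls 1 (blue circles), 2 (green squares) and 3 (red triangles), with the mean as a black bar and the background level of 5.05 as a dashed line. Of the genes shown, primary granule genes lie close together or lowest on control 3, and late neutrophil genes from S100a9 to Mmp8 lie highest on it. Not shown are Calr, Cst7 and Hp, primary granule genes that were highest on control 3, and Il1b, a late neutrophil gene that was lowest there.

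Of 16 measured monocyte and macrophage genes 1 was high, 8 middling and 7 at background. The 56.3% above background was near the 52.1% of all genes. Lyz2, lysozyme, read 9.49, 8.83 and 10.99 and Ctss, a lysosomal protease, averaged 8.44 ± 0.37. Adgre1, the macrophage antigen F4/80, read 1.38, 1.84 and 1.84, and C1qa, a complement subunit of macrophages, averaged 2.52 ± 0.28, both near the silent reference median. Of 13 dendritic and MHC class II genes 8 (61.5%) were above background, against 52.1% of all genes. They were led by Flt3 and by H2-Aa (8.27, 8.70 and 7.07), H2-DMa and H2-Ab1, parts of the class II antigen pathway. Itgax, Xcr1 and Cd209a, which define dendritic cell types, were at background at 3.60, 3.38 and 3.24. In the mast cell and basophil list 4 of 10 (40%) were above background, against 52.1% of all genes. Among these 4 was Cpa3, a mast cell protease gene, at 6.44, 6.92 and 6.80, while Fcer1a, the IgE receptor chain, averaged 2.79 ± 0.33.

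Megakaryocyte and platelet genes lay on both sides of the background level. Of 23 measured 2 were high, 12 middling and 9 at background. Thus 60.9% were above background, against 52.1% of all genes. Plek, a platelet kinase C substrate, read 9.60, 8.68 and 9.77, and F2r, the thrombin receptor, averaged 8.56 ± 0.89. Rgs18, a platelet G protein regulator, averaged 8.36 ± 0.45. Pf4, platelet factor 4, read 6.77, 9.00 and 7.38 and was highest on control 2. The 4 lowest were Tubb1, the platelet tubulin, at 2.15 ± 0.14, Clec1b at 2.92 ± 0.20, Gp6, the collagen receptor, at 3.04 ± 0.26 and Ppbp at 3.12 ± 0.89.

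Red cell genes differed between the parts of their list. Of 15 regulators and enzymes 12 were above background with a median of 5.96, against 1 of 8 membrane and globin genes with a median of 4.45. Car2, carbonic anhydrase, read 11.35, 10.98 and 10.66 and Urod, a heme synthesis enzyme, read 9.07, 8.50 and 10.41. Tfrc, the transferrin receptor, averaged 7.97 ± 0.33 and Slc25a37, the mitochondrial iron importer, averaged 7.33 ± 0.27. Hba-a1, alpha globin, read 3.97, 4.46 and 4.14. Rhag and Trim10, of maturing red cells, averaged 1.30 ± 0.12 and 3.27 ± 0.23. Of the whole list 13 of 23 genes (56.5%) were above background on the mean, near the 52.1% of all genes. Of these 13, 6 were above it on each array.

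Early lymphoid genes had the highest median of the 3 lymphoid lists. Of 18 measured 6 were high, 9 middling and 3 at background, with a median of 7.49. Dntt, the nucleotide-adding enzyme of lymphoid-primed progenitors, read 11.14, 11.02 and 10.23. Tcf4 and Mef2c, factors of lymphoid priming, averaged 9.62 ± 0.66 and 9.57 ± 0.48. Rag1, the recombinase of antigen receptor genes, read 5.03, 3.86 and 5.19, and Il7r, the interleukin 7 receptor of committed lymphoid progenitors, read 7.11, 5.06 and 3.70, the latter falling below background on control 3.

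Committed B cell genes were uneven between the arrays. Of 15 measured none was high, 7 were middling and 8 at background, with medians of 5.44, 3.99 and 5.11 on the arrays. The 46.7% above background was near the 52.1% of all genes, and the list's median was 5.03 against 5.18. Vpreb1, a surrogate light chain of pre-B cells, read 9.43, 3.99 and 5.63 and Cd79a, a signalling chain of the B cell receptor, read 5.71, 4.87 and 8.59. Vpreb1 was high on control 1 alone and Cd79a on control 3 alone. Ms4a1, which encodes CD20 of mature B cells, and Bank1 averaged 2.78 ± 0.56 and 1.81 ± 0.22. Without control 1 the count above background was 4, which is over 1.5 times fewer than 7, and only 2 genes passed on each array.

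T and NK cell genes were mostly at background. Of 20 measured 7 were middling and 13 at background, with a median of 4.07. Cd247, the zeta chain of the T cell receptor, read 8.10, 8.75 and 7.71. Nkg7, a cytotoxic granule protein that is also in the primary granule list, averaged 7.77 ± 0.78 and Prf1, perforin, averaged 6.87 ± 0.94. Besides Cd3e, Gzma, a granule protease, Cd28, a costimulatory receptor, and Ncr1, an NK cell receptor, were the lowest at 2.86, 2.52 and 2.03. Endothelial and stromal genes, for other marrow cells, were at background for 25 of 33, with a median of 4.00 and none in the high class. The stromal members Adipoq, Lum, Sp7 and Col3a1 had means of 2.19, 1.84, 2.98 and 3.16. Of the 15 endothelial genes 6 (40%) were above background, against 52.1% of all genes. Among these were Tek, Esam, Pecam1 (6.47 ± 0.24) and Egfl7 (7.63 ± 0.15), which stem cells are known to share. Robo4 (4.74, 4.26 and 3.49), Vwf and Cdh5, which are in the stem cell surface list too, were at background.

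Genes of other organs gave a check of the background level. Of 61 measured, 52 were at background and none was high, with a median of 3.64. The 9 above background were led by Prm1, a sperm protamine, at 7.33, 7.57 and 7.82, then Mbp (6.50 ± 0.61), Pmch (6.45 ± 0.43) and Oxt (6.26 ± 0.56). These 9 genes lay within the middling class, so a middling level alone does not set a blood cell gene apart from genes of other organs.

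Of 50 measured receptors for cytokines and growth factors 6 were high, 25 middling and 19 at background, with a median of 6.02. Thus 62% were above background and 12% high, against 52.1% and 10% of all genes. Cxcr4, the homing receptor of marrow cells, read 11.34, 11.80 and 10.88, Notch2, a receptor of cell fate signals, read 10.67, 10.93 and 10.12, and Ifnar2, a chain of the type I interferon receptor, averaged 9.87 ± 0.45. The lowest were Osmr (2.71 ± 0.53), Il2ra (3.25 ± 0.71), Lifr (3.27 ± 0.61) and Il5ra (3.35 ± 0.15), receptor chains of oncostatin M, interleukin 2, leukemia inhibitory factor and interleukin 5. Of 37 ligands 26 were at background, and their median was 4.33. Angpt1, angiopoietin 1, the ligand of Tek, was the only high one at 9.08, 9.46 and 8.52, and Tgfb1, a cytokine that holds stem cells at rest, read 8.55, 8.61 and 7.04. Kitl, the niche ligand of Kit, read 3.82, 3.58 and 3.72, and Cxcl12, the ligand of Cxcr4, read 4.60, 3.93 and 4.45, both at background. The receptor of both niche pairs was thus above background and the ligand was not.

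Signalling genes below the receptors were mostly middling, 14 of 21, with 4 high. Pim1, a kinase induced by STAT5, read 10.50, 10.19 and 9.94, and Jak1, a receptor-bound tyrosine kinase, averaged 8.90 ± 0.24. Stat5a, a cytokine-driven transcription factor, read 8.89, 8.73 and 8.61 and Stat3, a related factor, averaged 8.63 ± 0.05. Of 12 feedback genes 9 were above background, with a median of 6.26. Among the lowest were 3 suppressors of cytokine signalling. Socs3 read 3.25, 4.97 and 7.76, Socs2 read 4.76, 6.24 and 3.39 and Socs1 read 3.44, 3.29 and 3.29. Socs3 was at background on controls 1 and 2 and middling on control 3. The median of the 21 signalling genes was 6.62, and 7.30 without control 3.

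Cell cycle genes were present in force. All 34 measured genes of replication and the G1/S step were above background on the mean, and 33 on each array. Of the 34, 18 were high, with a median of 8.76. Mcm6, a subunit of the replicative helicase, read 11.87, 11.85 and 11.87. Pcna, the polymerase clamp, and Fen1, a flap nuclease, averaged 11.83 ± 0.04 and 11.39 ± 0.10. All 29 mitotic genes were above background on the mean as well, and 24 on each array. Of the 29, 7 were high, with a median of 7.93. Mki67, the proliferation antigen Ki-67, read 12.33, 12.21 and 12.41, and Cdca8, a chromosomal passenger protein, averaged 10.73 ± 0.33. Plk1, a mitotic kinase, was the lowest at 5.34, 6.16 and 4.65. On control 3 the median differences from the other arrays were -0.42 for replication and -0.96 for mitotic genes, and control 3 was the lowest array for 24 of 34 and 22 of 29.

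Inhibitors and cyclins were uneven within their families. Cdkn1b, the inhibitor p27, read 9.48, 9.40 and 8.34 and was the only high inhibitor. Cdkn1a, the p53 target p21, read 8.80, 7.15 and 7.03, and Cdkn1c, the inhibitor p57 of resting stem cells, was at background at 3.20, 3.97 and 3.35. Cdkn2a and Cdkn2b, inhibitors of senescence, were at background too, at 4.12 ± 0.11 and 2.95 ± 0.27. Cdk6, a G1 kinase that governs the exit from rest, read 10.32, 10.23 and 10.32, and its partner kinase Cdk4 read 9.91, 10.28 and 8.70. Of the D-type cyclins Ccnd2 read 10.06, 10.23 and 9.97, Ccnd1 7.19, 7.05 and 7.44 and Ccnd3 7.82, 6.61 and 7.08. The kinases and Ccnd2 were high on each array.

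Cytoskeleton, ribosomal protein and translation factor genes had the highest medians of the 40 lists. Cytoskeleton genes had 13 of 14 high with a median of 12.08, ribosomal proteins, in a fixed list that differs from the 43 genes above and leaves out Rpl13a, 32 of 38 with 11.92 and translation factors 19 of 21 with 11.49. The ribosomal exceptions at background were Rps27, Rpl37 and Rps16 (1.80, 2.09 and 2.50), each read by the probe set that names it alone. Chaperones had 18 of 24 high, and the stress-induced pair Hspa1a and Hspa1b was at background at 1.73 ± 0.24 and 2.06 ± 0.19. Ribosome biogenesis genes had 14 of 23 high, led by Npm1 and Ncl, nucleolin (12.53 ± 0.19). Oxidative phosphorylation had 22 of 33 high with a median of 9.80, and glycolysis 9 of 21 with 8.09. Proteasome subunits had 14 of 28 high with 8.60. Control 3 was the lowest array for 29 of 32 oxidative phosphorylation genes above background and 24 of 28 proteasome genes, with median differences of -0.82 and -0.87.

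Immediate early genes, which are induced within minutes of a stimulus, were high for 13 of 30, middling for 12 and at background for 5, with a median of 8.05. Zfp36, an mRNA decay factor, read 12.59, 12.12 and 12.21, and Jund, an AP-1 subunit, averaged 11.68 ± 0.09. Fos, its partner, read 12.22, 11.14 and 10.28, and Egr1, a zinc finger factor, read 10.39, 9.23 and 10.39. Fos and Nr4a1 (10.44, 9.13 and 8.27), an orphan nuclear receptor, were highest on control 1. The median gene above background lay 0.58 higher on control 1 than on the others. Ccn1, Atf3, Egr2 and Ccn2 were at background. Control 1 was thus the array where this list stood highest.

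Interferon response genes were mostly middling, 13 of 20, with 3 high. Ifitm3, an antiviral membrane protein, read 11.90, 11.83 and 11.86, while Mx1 and Mx2, dynamin-like antiviral proteins, were at background at 3.53 ± 0.23 and 2.38 ± 0.06. MHC class I genes were all above background, 6 of 9 high, led by B2m at 13.18, 13.31 and 13.08. Chromatin genes were present nearly throughout. Of 25 polycomb genes 6 were high and 18 middling, and of 14 DNA methylation genes 4 were high and 9 middling. Rbbp4, a histone chaperone, read 12.59, 12.63 and 12.06. Ezh2, the H3K27 methyltransferase of dividing cells, read 9.29, 8.72 and 8.09 and Ezh1, its relative, read 6.40, 6.54 and 6.48. Dnmt1, the maintenance methyltransferase, read 11.44, 11.22 and 11.21, while Dnmt3a, a de novo enzyme, read 9.45, 9.45 and 9.79 and Dnmt3b, the other, read 8.87, 8.12 and 8.12. Of the enzymes that oxidise methylcytosine, Tet1 read 6.86, 7.69 and 6.39 and Tet2 read 6.70, 7.89 and 7.20. Dnmt3l, a germline cofactor, was at background at 4.80 ± 0.08.

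Survival genes were above background on each array. Mcl1, which holds back cell death, read 11.28, 11.06 and 11.79. Bcl2, a related protein, read 10.60, 10.64 and 11.15, and Bcl2l1, which encodes BCL-XL, read 5.08, 5.51 and 7.61. All 4 measured survival genes were highest on control 3, by a median of 1.47 above the mean of the other arrays. Of 10 death-promoting members 7 were middling and 3 at background, and none was high. The highest of these was Bcl2l11, which encodes BIM, at 8.50 ± 0.75.

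Set beside each other, the lists show where the arrays part. Over all genes above background the median difference of control 3 from the mean of the others was -0.18, of control 1 0.07 and of control 2 0.12. Pan-leukocyte genes followed this with -0.07 on control 3. Late neutrophil genes departed upward by 3.65, and mitotic genes (-0.96), CDK inhibitors (-0.90), proteasome genes (-0.87), lineage-deciding factors (-0.82), oxidative phosphorylation genes (-0.82) and dendritic and MHC class II genes (-0.80) departed downward. The median of all 128 silent reference genes was 2.37, 2.24 and 2.66 on controls 1, 2 and 3. Without control 3 the median over all measured members was 8.05 for mitotic genes against 7.93 with it, 6.55 against 6.44 for CDK inhibitors, 8.90 against 8.60 for proteasome genes, 5.90 against 5.84 for lineage-deciding factors, 10.08 against 9.80 for oxidative phosphorylation and 6.48 against 6.07 for dendritic and MHC class II genes. It was also 7.49 against 7.13 for polycomb genes, 5.62 against 5.24 for monocyte and macrophage genes, 7.84 against 7.49 for early lymphoid genes, 6.58 against 6.18 for the gate and stem cell surface list, 7.24 against 6.91 for stem cell regulators and 6.90 against 6.57 for interferon response genes. The BCL2 family went the other way, with 5.86 against 6.19.

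**Figure D5:**
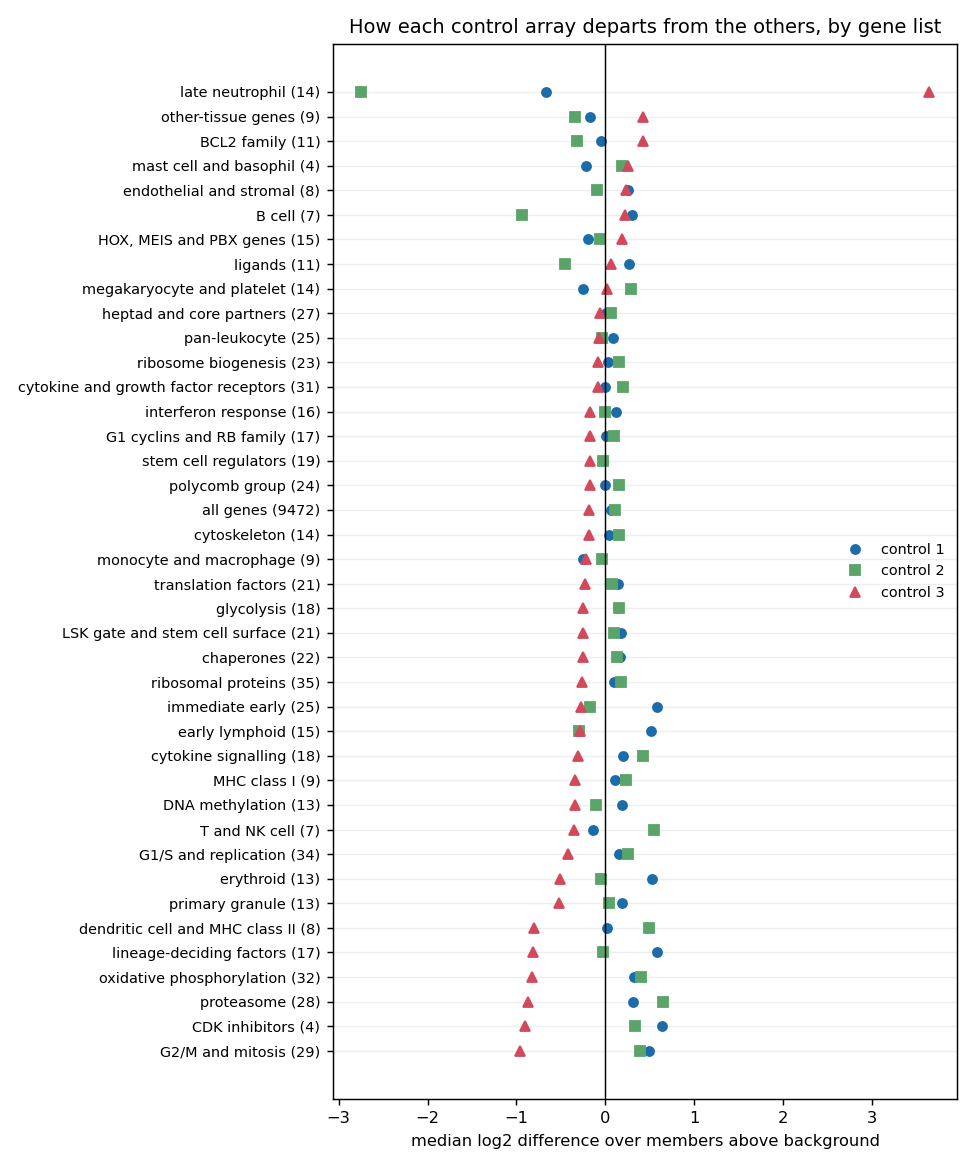
Median log2 difference of each control array from the mean of the others (horizontal axis), over the members of each list above background (their number in brackets), for controls 1 (blue circles), 2 (green squares) and 3 (red triangles). For late neutrophil genes control 3 differs by 3.65 and for mitotic genes by -0.96, while pan-leukocyte genes lie near 0 on every array.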

How the data were processed

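Sorted LSK cells gave total RNA that was amplified and biotin-labelled for mouse Affymetrix arrays, 1 array per sample, per the labels' protocols. The deposited values are log2 values made with RMA, per the submitters' processing notes, which give no version. RMA adjusts for background, equalises the distributions of the arrays and summarises probes by median polish, which can give several arrays the same value: 57 genes had exactly equal deposited values on all 3 arrays and 1179 on at least 2. Probe intensities were not used here. The build behind the probe sets is not given in the sources used here.

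Of 45101 probe sets 64 were controls, 34945 named 1 gene, 932 several and 9160 none, by the platform annotation, and 34741 were matched to RefSeq symbols. Only those with 1 gene were used, 18193 genes in all. Each gene took its brightest probe set in the controls. Means, SDs, ranges and correlations were computed in Python 3.11.15 with pandas 2.3.3 and numpy 2.4.6, and plots with matplotlib 3.10.9. With 1 group there is no contrast, no test and no p-value. On simulated data with 200 planted genes of each kind, 6.5% of silent genes and 100% of genes at least 2 above the level were called above background. The silent levels were drawn from the reference that sets the level, and the strong ones were placed above it. Both shares were thus largely set in advance, and no choice among probe sets was simulated. The simulation checks the code and cannot show that the background level is right. The 40 lists held 1053 members and 983 distinct genes, 881 of them measured, so some genes count in several lists.

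The arrays, members, lists and thresholds were chosen with earlier results of these data known. Genes were named by rule: the top 20, the 4 highest and 4 lowest of each list, the 10 of largest and of smallest range, and a fixed set of markers and regulators. Bcl2l1, Hoxb4, Ltf, Nr4a1 and Prtn3, and the 4 printed promoters, were picked with their values in view. Other settings changed the probe set, the background level, the size of the high class, the normalization and the arrays. The number of arrays limits the precision.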

Additional observations from a re-analysis of the deposited data

How the results depend on the processing

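Genes above background numbered 9472, and under the alternatives 9432 with the brightest probe set over 9 arrays, 8213 with the mean of probe sets, 10522 and 6923 with the 90th and 99th percentile of the reference, 12483 with the 40th percentile of all probe sets, 7921 when each array had to pass and 9443 after a further quantile normalization. Leaving out 1 array gave 8898 to 9732. A high class of the top 5% or top 20% of genes held 910 or 3639 genes in place of 1820. With the mean of probe sets 1215 of the 1820 stayed in the class, and leaving out 1 array shared 1682 to 1728. The lowest correlation between arrays was 0.919, and without 1 array it lay between 0.918 and 0.959, the latter without control 3. Lists with most members above background numbered 32, with 28 to 37 under the alternatives and 31 to 33 without 1 array. Of 480 list counts 458 were within 1.5 times the count given, and 29 of 40 lists never moved beyond it. The others were small or near background: with the 99th percentile late neutrophil genes fell from 14 to 8, erythroid from 13 to 7, monocyte from 9 to 4, ligands from 11 to 4 and other-tissue genes from 9 to 4, while the 40th percentile gave 21 erythroid, 20 ligand, 16 endothelial and stromal and 22 other-tissue genes. List medians moved by more than 1 SD between arrays for 28 of 40 lists with the mean of probe sets, and by over 1.5-fold for 25, with a median change of -0.79: MHC class I went from 10.18 to 7.46, chaperones from 10.68 to 8.24 and translation factors from 11.49 to 9.17. With the brightest probe set over 9 arrays 1 list moved, dendritic and MHC class II genes, from 6.07 to 5.17. Leaving out control 1, 2 or 3 moved 4, 4 and 6 medians by more than 1 SD. No paired analysis was possible because there is 1 group and no contrast.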

Other observations

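The genes that varied most between the control arrays belonged to no list. Among genes above background the largest ranges were those of Slc16a9, a monocarboxylate and carnitine transporter, at 2.55, 6.48 and 9.33, Wdcp at 9.28, 4.77 and 2.68 and Klf9, a Kruppel-like transcription factor, at 8.87, 8.32 and 2.27 on controls 1, 2 and 3. They were followed by Sntb2, Ubash3a (3.58, 5.86 and 9.87), Vipas39, Pfn2, Insyn2b, Rassf4 and Grasp. Slc16a9 and Ubash3a were highest on control 3, and Wdcp and Klf9 were lowest there. The smallest ranges of the high class were those of Hp1bp3 (10.69, 10.71 and 10.69), a heterochromatin-binding protein, Mcm6, Chd1, AY036118, Qrich1, Dhx15, Rsl1d1, Tardbp, Actg1 and Senp3. Small ranges can come from the median polish, which returns the same value for several arrays.

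The level assigned to a gene went along with how many probe sets it has. Of genes with 1 probe set 36.1% were above background, with 2 59.9%, with 3 73.7% and with 4 or more 82.1%, and their medians were 4.26, 5.65, 6.46 and 7.24. Of 9010 genes with at least 2 probe sets, 2531 had all of them above background, 2856 had all at background, and 3623 had the brightest above and the dimmest at background. For 542 genes the brightest probe set was in the high class and the dimmest at background. The median log2 difference between the brightest and the dimmest was 1.91. Among genes with 1 probe set, high genes had a median of 18 CG in the 250 bases before the start and middling genes 14.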
